A study of Drosophila melanogaster with 62 samples.

Results

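The regions described here are the 10543 segments of the authors' early segment annotation that carry the type code LE and are marked as 3′ UTR. They are drawn from 20927 3′ UTR segments and 79593 segments in all, and they lie in 8643 of the 12625 annotated genes. No source used here says what the codes LE, TE, CE, AL and RI mean, so they are kept as written. The rule that picks the members uses the type code and the 3′ UTR mark alone, and no fold or adjusted p-value. It was set with earlier results of these data known. The annotation differs between stages, and 7881 of the 10543 members have the same coordinates in the late one. Whether the embryo reads were used to divide the segments was not checked. With the code undefined, its meaning was read from the position of the segments.

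The series compared 3′ UTR segment use in Drosophila melanogaster embryos that carry mutations in the ELAV family with wild-type embryos. The early groups (embryos of 14 to 16 h) had 3 libraries per genotype, in elav-fne-rbp9, elav-fne, elav-rbp9, elav, fne, rbp9 and wild type. Late embryos (18 to 22 h) were sequenced as 5 elav-fne, 3 elav, 4 fne and 4 wild-type libraries. For fne-rbp9, 3 libraries are labelled 18 to 22 h while their description points to a table of early embryos, and the stage is treated as unclear. A second experiment had 3 libraries each of elav-nFne, nFne and wild type at both stages (nFne is the labels' own name), and 2 libraries were made from wild-type adult heads. All embryo libraries were poly(A) RNA of pooled male embryos, and the labels name the mutated genes without giving alleles. Whole embryos were used, so fewer neurons and less use of a segment per neuron cannot be told apart in these values. Nothing in the labels says that replicates came from separate crosses, and p-values from the authors then cover a spread that may be technical.

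A gene's 3′ end is set where its transcript is cleaved and polyadenylated. A gene with several cleavage sites can end its transcripts early or late in the same last exon, which shortens or lengthens the 3′ UTR, or it can splice to a different last exon, which also changes the end of the protein. ELAV, FNE and RBP9 are paralogous RNA-binding proteins of neurons, and ELAV is known to favour distal 3′ ends in the nervous system. The authors' deposited tables give, for each mutant, the segments that were used less than in wild type, with 1 entry per gene that holds a single segment or several.

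LE segments were mostly the end of a gene that had no other 3′ UTR segment. Of the 10543 members, 6434 (61.0%) were the only 3′ UTR segment of their gene, against 31.1% of all 3′ UTR segments. The last segment of the gene was an LE segment in 8508 cases, so that 80.7% of members stood last, against 38.3% of TE segments and 55.1% of all 3′ UTR segments. A gap separated 7974 members (75.6%) from the segment before them, with a median gap of 64 bases, whereas 31.8% of TE segments had such a gap. The share was 56.6% over all 3′ UTR segments, 86.5% in AL and 74.4% in CE segments, so a gap is not particular to LE segments. Only 1894 members (18.0%) abutted a 3′ UTR segment on their upstream side, against 62.7% of TE segments. Segments that overlap by 1 base in the annotation, 1397 of the members with their upstream neighbour, were counted as abutting. LE segments were thus placed as last exons behind an intron-like gap more often than as pieces of a divided 3′ UTR.

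The reference gene models described the same layout. Of the members, 8556 (81.2%) held annotated coding bases in at least 1 transcript, against 38.1% of TE segments, and 2284 (21.7%) lay wholly in annotated 3′ UTR, against 64.6% of TE segments. AL segments were nearer to LE segments here: 91.7% held coding bases and 16.1% lay wholly in annotated 3′ UTR. Summed over all members, 60.2% of bases were coding in some transcript and 41.4% were 3′ UTR in some transcript, and the classes can overlap. An annotated transcript end lay within 10 bases of the 3′ end of 84.7% of the LE segments and of 84.4% of the TE segments.

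LE segments had a median width of 457 bases, with the central part between 251 and 830 bases, against medians of 403 bases for TE segments and 376.5 bases for AL segments. Their total length was 6928500 bases. Only 79 members (0.749%) were under 50 bases, against 3.76% of TE segments. The widest members were often mostly coding. The segment of Sdb spanned 10263 bases, of which 10106 were coding, and that of CG42232 spanned 8106 bases, of which 7784 were coding. The segments of CG7564 (7587 bases) and Octalpha2R (7327 bases, an octopamine receptor gene) were mostly annotated 3′ UTR. The gene FBgn0039959, which the reference does not name, had a segment of 6897 bases. The narrowest members were slivers between closely spaced ends: 1 base in CG11155, 2 bases each in ppk30 (a pickpocket-family sodium channel gene) and RpS26 (a ribosomal protein gene), 3 bases in Uck (uridine-cytidine kinase) and 4 bases in CG33307. None of these 5 stood last in its gene.

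**Figure D1:**
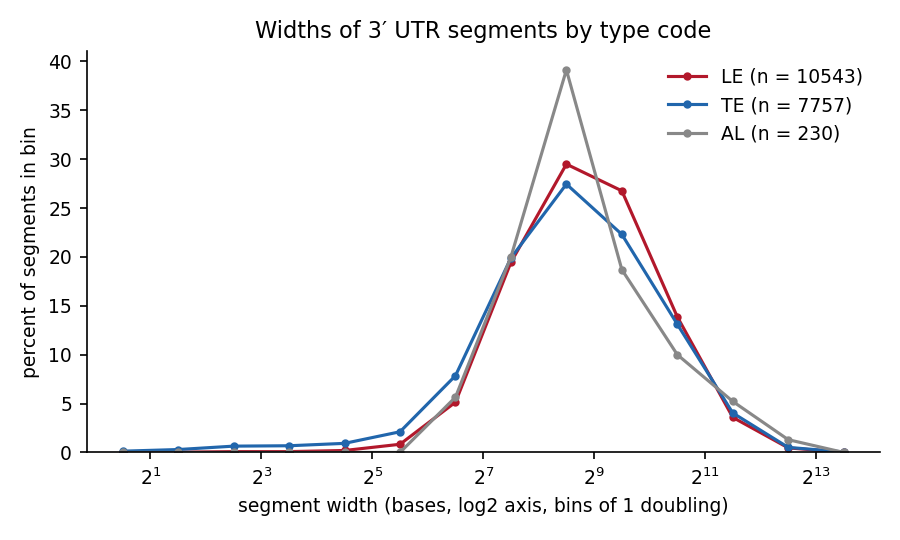
Percent of 3′ UTR segments (vertical axis) by width in bases (horizontal log2 axis, bins of 1 doubling) for the 10543 LE, 7757 TE and 230 AL segments. The LE curve has few segments under 50 bases (0.749%, against 3.76% of TE segments) and its median is 457 bases.

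Most genes had a single member: 7067 genes (81.8%) held 1 LE segment, 1314 held 2, and 262 held more. The gene l(1)G0469 held 6, the most of any gene. A further 14 genes held 5 each, among them cpx (complexin, a regulator of synaptic vesicle fusion), Larp4B (a La-related RNA-binding protein), trol (perlecan, a basement membrane proteoglycan) and Dscam2 (a cell-surface protein of the Dscam family). Among the member genes, 1248 had several LE segments and no other code in the 3′ UTR, 199 combined LE with TE segments, and 762 combined LE with other codes. The rest of the analysis turns on the 4109 members in the 2209 genes with at least 2 3′ UTR segments, because an alternative end needs an alternative. These had a median width of 337 bases, 50.5% stood last and 45.6% had a gap upstream.

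In adult heads, genes with an LE segment were expressed at lower levels than genes whose 3′ UTR had other codes only. Their median was 5.43 and 5.60 TPM in the 2 wild-type head libraries, against 12.4 and 12.9 TPM for the 2901 other genes. Of the LE genes 67.2% had a mean of at least 1 TPM, against 81.2% of the others. The difference lay with the LE genes that had a single 3′ UTR segment, whose median of the mean was 3.50 TPM. LE genes with at least 2 3′ UTR segments had a median of 12.6 TPM, against 12.7 TPM in the other genes. The TPM is per gene and not per segment, and the 2 libraries are of 1 group, so no test was made. The most expressed LE genes in heads were Nplp3 (a neuropeptide-like precursor; 12600 and 11675 TPM), ninaE (the main rhodopsin; 7648 and 7960 TPM), Arr2 (the major visual arrestin; 4451 and 4899 TPM), CG7203 (4980 and 4221 TPM) and retinin (a corneal protein; 2742 and 2136 TPM). The neuronal markers elav, nSyb, Syt1 and brp and the glial marker repo were all detected in these libraries, between 13.3 and 296 TPM. The embryo libraries have no such values here, so the cell types in them were not checked.

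Few LE segments were listed as used less in the mutants. All listed members lay in genes with at least 2 3′ UTR segments, and so did all listed segments of any code, so shares are given over these genes. In elav-fne-rbp9 embryos, 56 LE segments (1.36% of 4109) were listed, against 2.51% of all 3′ UTR segments. In elav-fne embryos, 30 (0.73%) were listed, against 2.04%. In elav and in elav-rbp9 embryos, 23 (0.56%) were listed in each, against 1.66% and 1.31% of all 3′ UTR segments. In all 4 mutants with elav mutated, the share of LE segments was therefore below the background. In fne embryos, 15 (0.365%) were listed against a background of 0.437%, and in fne-rbp9 embryos 12 (0.292%) against 0.291%, which is near the background and is no result about LE segments. In rbp9 embryos no LE segment was listed, where the background is 0.0485%, or 7 segments. For TE segments, over all genes, the listed shares were 3.25% in elav-fne-rbp9, 3.17% in elav-fne, 2.59% in elav and 2.0% in elav-rbp9 embryos.

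Counted over all 10543 members, the shares were 0.531% in elav-fne-rbp9, 0.285% in elav-fne, 0.218% in elav and in elav-rbp9, 0.142% in fne and 0.114% in fne-rbp9 embryos. The backgrounds over all 3′ UTR segments were 1.73% in elav-fne-rbp9, 1.41% in elav-fne, 1.14% in elav, 0.903% in elav-rbp9, 0.301% in fne, 0.201% in fne-rbp9 and 0.0334% in rbp9 embryos. The early comparisons use the same wild-type libraries, so their lists are not independent of each other. Entries that hold an LE segment made up 18.3% of the entries in elav-fne-rbp9, 10.6% in elav-fne, 10.3% in elav and 13.4% in elav-rbp9 embryos, and 25.9% in fne and 30.8% in fne-rbp9 embryos, whose lists are short.

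**Figure D2:**
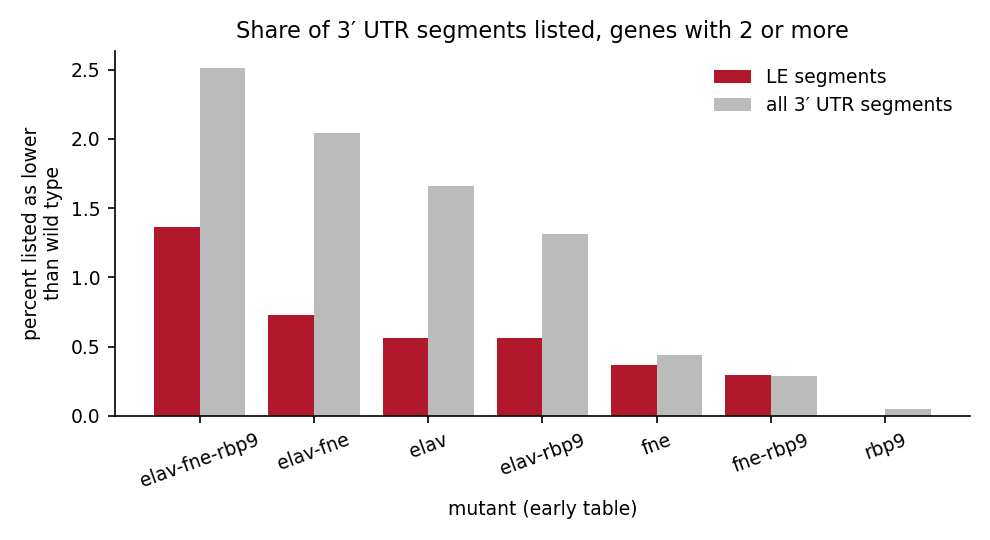
Percent of segments listed as used less than in wild type (vertical axis) in each early mutant table, for LE segments (left bar) and all 3′ UTR segments (right bar) of genes with at least 2 3′ UTR segments. The LE bar is lower in the 4 mutants with elav mutated (1.36% against 2.51% in elav-fne-rbp9 embryos) and about level in fne-rbp9 embryos (0.292% against 0.291%).

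Over the 7 early tables, 78 different LE segments in 72 genes were listed, in 143 entries, of which 121 held a single segment. They were wider than the unlisted members of genes with at least 2 3′ UTR segments (median 633.5 against 332 bases), fewer had a gap upstream (21.8% against 46.0%) and more stood last in the gene (62.8% against 50.2%). Of the 78, 56 (71.8%) lay wholly in annotated 3′ UTR and 27 (34.6%) held coding bases of some transcript. Their genes had a median of 21.4 TPM in adult heads, and 94.4% of these genes had a mean of at least 1 TPM. These are descriptions without a test, and the part of width and expression level in the listing was not tested. The same total and contrasts were not computed over all 3′ UTR segments, so these values are not shown to be particular to LE segments. The listed segments fell into classes by what lay directly upstream, a division made after the values were seen.

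The largest class, 49 segments in 47 genes, continued a 3′ UTR segment without a gap, whatever the code of that segment. The segment before was LE in 40 of the 49. In the others it was TE (brat, bru3, CG44422), RI (hig, CG15747), AA (inaE, corn), AD (CG34383) or CE (Pabp2). Such a neighbour can itself follow a gap, as the AA segment of 18 bases in corn did, after 53 bases. The 49 segments had a median width of 502 bases, 36 stood last in the gene and all lay wholly in annotated 3′ UTR. Of the 49, 4 also held coding bases of some transcript, among them the segment of inaE with 1890 of its 2213 bases. A second class of 17 segments in 17 genes began after a gap of 24 to 7743 bases. The shortest gaps were 24 bases in SPoCk and 43 bases in Pnn. In CG15894 the segment was the first 3′ UTR segment of its gene and was listed with the only other one. The class was therefore not read as alternative last exons throughout. The median width in this class was 1147 bases, 13 stood last and 11 held coding bases. The remaining 12 segments abutted a CE segment not marked as 3′ UTR, ran on past it, and were each followed by further segments of the gene. All 12 held both coding and 3′ UTR bases, all 12 had an annotated transcript end within 10 bases, and none stood last. They are placed as ends inside the gene, upstream of its last exon. Among members of genes with at least 2 3′ UTR segments, the classes hold 1894, 1873 and 342 segments, of which 2.59%, 0.908% and 3.51% were listed in some table. The same share over all 3′ UTR segments was not computed. In elav-fne-rbp9 embryos the class shares were 1.58%, 0.747% and 3.51%, against a background of 2.51%, so the third class was not below it. In elav-fne embryos they were 0.95%, 0.534% and 0.585%, against 2.04%.

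The classes were spread unevenly over the mutants. In fne embryos all 15 listed members continued a 3′ UTR segment, and none followed a gap. In fne-rbp9 embryos 10 of 12 did so. In elav embryos 14 continued a 3′ UTR segment and 9 followed a gap, and in elav-rbp9 embryos 11 did each. The 15 fne members had a median width of 255 bases, against 1099 bases for the 23 elav members. All 12 ends inside the gene were listed in elav-fne-rbp9 embryos, where they made up 21.4% of the listed members. Pcf11 and app were also listed in elav-fne embryos and pan in elav-rbp9 embryos, and no segment of this class was listed in elav, fne or fne-rbp9 embryos. Of the members that continue a 3′ UTR segment, 0.792% were listed in fne embryos (background 0.437%) and 0.739% in elav embryos (background 1.66%). Of those after a gap, 0.481% were listed in elav and none in fne embryos. The same division of all listed 3′ UTR segments was not computed, so the uneven spread is not shown to be particular to LE segments. These are counts over lists that share wild-type libraries, and the differences between lists were not tested.

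**Figure D3:**
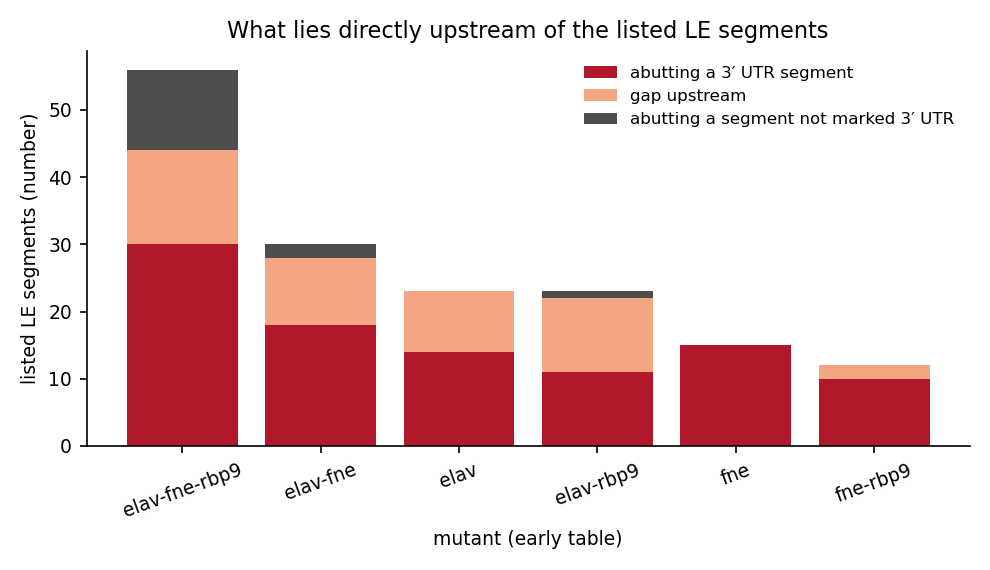
Number of listed LE segments (vertical axis) in 6 early mutant tables, divided by what lies directly upstream of the segment. All 15 segments in fne embryos continue a 3′ UTR segment, and 12 of the 56 in elav-fne-rbp9 embryos abut a segment not marked as 3′ UTR.

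The layout of 5 genes shows these classes. Bsg encodes Basigin, a membrane protein of the immunoglobulin superfamily. Its entry joined LE segments of 1022 and 6051 bases at the end of the gene (dm6, chr2L:8109459-8110480 and chr2L:8110481-8116531, plus strand), both wholly 3′ UTR in some transcript. They continue a short LE segment and 3 RI segments without a gap. In brat, which encodes an NHL-domain translational repressor, the listed segment was the 4876 bases before the last one (dm6, chr2L:19172568-19177443, plus strand), and the final segment was not listed. In Vrp1, the verprolin gene whose product partners WASp in actin assembly, and in px, the plexus gene of wing venation, both on arm 2R, the listed segments of 1099 and 2102 bases followed gaps of 375 and 105 bases. In both genes the segment before the gap was also LE and abutted an exon, and it was not listed. In PNUTS, which encodes a targeting subunit of nuclear protein phosphatase 1, the order was the other way round: the listed segment of 610 bases abutted an exon (dm6, chr2L:873540-874149, plus strand) and the last exon, a further LE segment, was not listed.

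**Figure D4:**
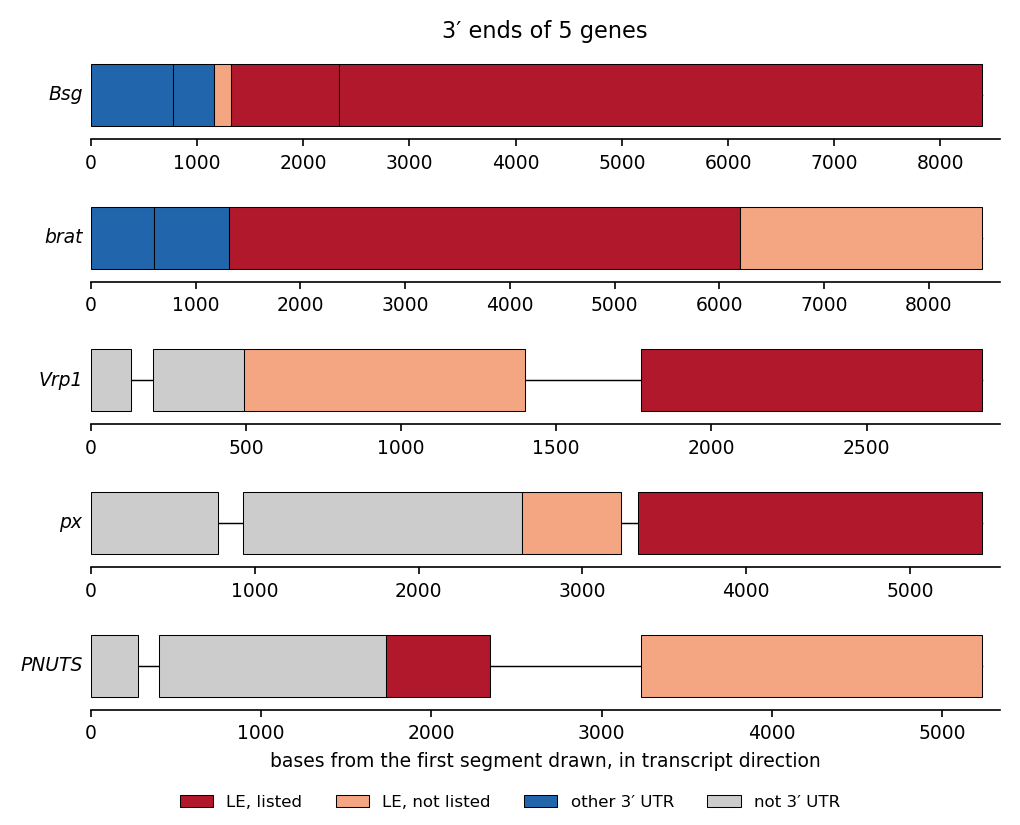
Segments at the 3′ ends of 5 genes, in bases from the first segment drawn in the direction of transcription; boxes are segments and thin lines are gaps. Red boxes are LE segments listed in an early table. They extend a 3′ UTR in Bsg and brat, follow a gap in Vrp1 and px, and lie before the last exon in PNUTS.

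Of the genes, 20 had an LE entry in at least 3 early tables. The same count over all listed genes was not computed. Their log2 folds (mutant over wild type, in relative use of the segment) come from the authors' deposited tables, which give no value per library and no standard error. Each comparison rests on 3 mutant and 3 wild-type libraries, and the fits were made separately. Every entry passed the tables' adjusted p of 0.0001 and a log2 fold of -0.75 or lower, so the existence of a decrease is how an entry came to be listed and is not a finding. The tables hold no increases.

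The lowest folds were at genes listed in all 4 mutants with elav mutated. Syt1 encodes synaptotagmin 1, the calcium sensor of transmitter release. Its entry joined a TE segment of 1474 bases with an LE segment of 327 bases (dm6, chr2L:2772327-2772653, minus strand) that lies 6529 bases beyond the segment before it, so its values are those of both. The entry had log2 folds in the authors' deposited tables of -4.67 in elav-fne-rbp9, -6.77 in elav-fne, -3.03 in elav-rbp9 and -2.90 in elav embryos. In the elav-fne comparison the fitted use score was 4.87 in elav-fne and 23.5 in wild-type embryos, in the authors' deposited tables. In the elav comparison it was 14.1 in elav and 34.0 in wild-type embryos, in the authors' deposited tables. The scale of the score is not stated there, and the log2 fold is not the log2 ratio of the 2 scores. Syt1 had 189 and 199 TPM in adult heads.

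At Bsg, the log2 folds in the authors' deposited tables were -4.93 in elav-fne-rbp9, -4.88 in elav-fne, -1.81 in elav-rbp9 and -1.91 in elav embryos. The fitted use score was 10.8 in elav-fne and 43.9 in wild-type embryos, and 32.1 in elav and 52.3 in wild-type embryos, in the authors' deposited tables. At px, the authors' deposited tables gave -4.76 in elav-fne-rbp9, -3.87 in elav-fne, -1.72 in elav-rbp9 and -1.57 in elav embryos. At zld, the gene of the pioneer transcription factor Zelda, they gave -3.96 in elav-fne-rbp9, -4.50 in elav-fne, -1.20 in elav-rbp9 and -1.12 in elav embryos, in the authors' deposited tables. The elav-rbp9 entry of zld held 1 LE segment, and the others joined it with the last one. In these 4 genes the folds of the mutants with both elav and fne mutated were lower than those of the elav and elav-rbp9 mutants. The tables give no values per library, so the difference was not tested.

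The same order held at inaE (a diacylglycerol lipase of phototransduction) and br (Broad, a zinc-finger factor of the ecdysone response). The authors' deposited tables gave inaE -2.73 in elav-fne-rbp9, -3.24 in elav-fne, -1.65 in elav-rbp9 and -1.89 in elav embryos. For br they gave -1.93 in elav-fne-rbp9, -2.89 in elav-fne, -1.20 in elav-rbp9 and -1.28 in elav embryos, in the authors' deposited tables. The br segment of 1944 bases closes the gene (dm6, chrX:1662926-1664869, plus strand). At corn (a microtubule-binding protein gene), the authors' deposited tables gave -2.48 in elav-fne-rbp9, for an entry that also held another segment, -2.47 in elav-fne, -1.63 in elav-rbp9 and -1.42 in elav embryos. CG3967 had -1.77 in elav-fne-rbp9, -1.51 in elav-fne, -1.11 in elav-rbp9 and -1.13 in elav embryos, in the authors' deposited tables. At Vrp1 they gave -2.11 in elav-fne-rbp9, -1.82 in elav-fne, -1.60 in elav-rbp9 and -1.30 in elav embryos, in the authors' deposited tables.

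The folds of brat and Cbl lay closer together. The brat entry had log2 folds in the authors' deposited tables of -1.24 in elav-fne-rbp9, -1.16 in elav-fne, -1.04 in elav-rbp9 and -0.99 in elav embryos, and its fitted use score was 36.6 in elav-fne-rbp9 and 49.8 in wild-type embryos. For Cbl, an E3 ubiquitin ligase gene, the authors' deposited tables gave -0.86 in elav-fne-rbp9, -1.20 in elav-fne, -1.20 in elav-rbp9 and -0.99 in elav embryos. The elav-fne value is for the last segment alone, and the others are for that segment joined with the one before it. For bru3, a CELF-family RNA-binding protein gene, the entries held different sets of segments in the different tables. Its folds were -1.52 in elav-fne-rbp9, -2.35 in elav-fne, -1.47 in elav-rbp9 and -1.83 in elav embryos, in the authors' deposited tables. The order seen at the genes above did not hold at Cbl and bru3, where the elav-fne-rbp9 fold was not lower than the elav fold.

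CG44838 was listed in 5 tables, more than any other member gene. Its segment of 1147 bases (dm6, chr3L:9474329-9475475, plus strand) had log2 folds of -1.47 in elav-fne-rbp9, -1.13 in elav-fne, -1.24 in elav-rbp9, -0.97 in elav and -1.23 in fne-rbp9 embryos, in the authors' deposited tables. SPoCk (a calcium pump of the secretory pathway) and 5PtaseI (an inositol polyphosphate 5-phosphatase gene by name) were listed in elav-fne-rbp9, elav-fne and elav-rbp9 embryos. The authors' deposited tables gave SPoCk -1.34 in elav-fne-rbp9, -1.26 in elav-fne and -0.87 in elav-rbp9 embryos. They gave 5PtaseI -1.59 in elav-fne-rbp9, -2.05 in elav-fne and -0.97 in elav-rbp9 embryos, in the authors' deposited tables. CG11319 had -2.13 in elav-fne-rbp9, -1.87 in elav-rbp9 and -1.48 in fne-rbp9 embryos, and had no LE entry in elav-fne or elav embryos in the authors' deposited tables.

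**Figure D5:**
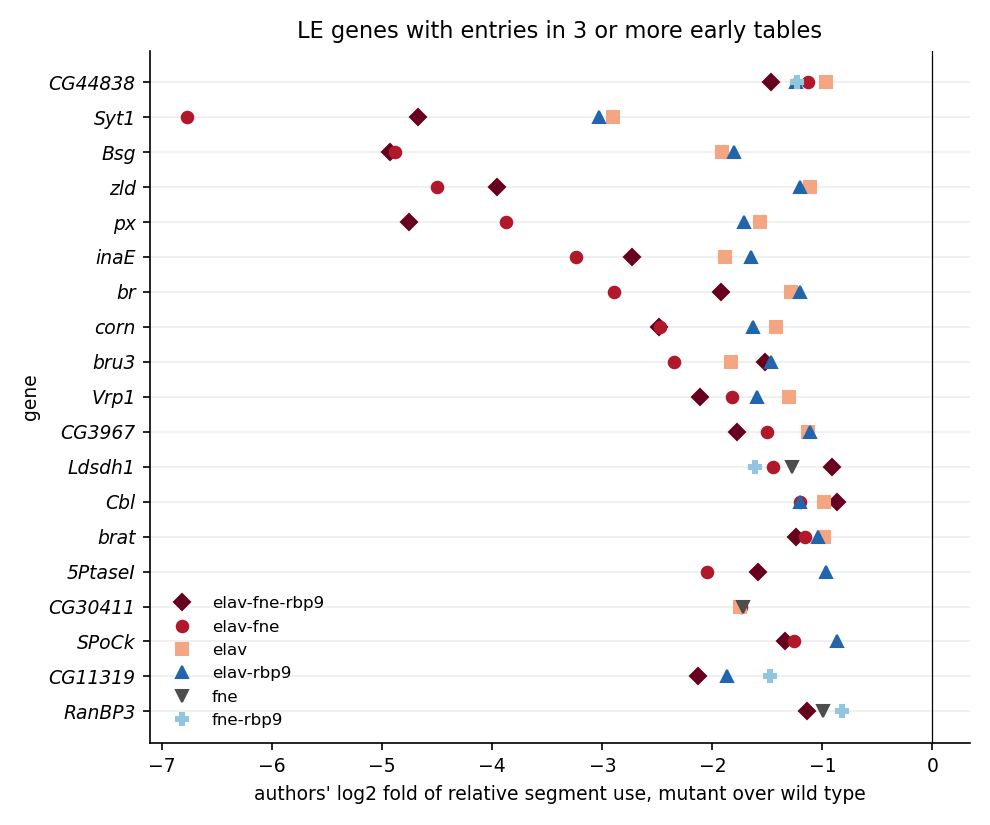
The authors' log2 fold, mutant over wild type, in relative use of an entry's segment or joined segments (horizontal axis), for 19 of the 20 genes with an LE entry in at least 3 early tables (rows); each marker is a mutant. At Syt1, Bsg, zld and px the elav-fne and elav-fne-rbp9 markers lie at -3.87 or lower, and the elav and elav-rbp9 markers at -3.03 or higher.

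Another set of genes was listed in fne or fne-rbp9 embryos, in which elav is not mutated. CG30411 had -1.74 in elav-fne, -1.75 in elav and -1.72 in fne embryos in the authors' deposited tables. Its segment is 493 bases wide, and the gene had 0.49 and 0.87 TPM in heads. Ldsdh1 (a lipid droplet dehydrogenase gene by name) had -1.28 in fne, -1.61 in fne-rbp9, -1.45 in elav-fne and -0.92 in elav-fne-rbp9 embryos, in the authors' deposited tables. RanBP3 had -0.998 in fne, -0.82 in fne-rbp9 and -1.14 in elav-fne-rbp9 embryos, in the authors' deposited tables.

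Other members with low folds in fne embryos were, in the authors' deposited table, CG2519 (-1.72), Spp (a signal peptide peptidase, -1.60), Zip102B (a zinc transporter, -1.40), CG8745 (-1.35), CG16886 (-1.04) and Desat1 (a fatty acid desaturase, -1.0). In fne-rbp9 embryos they were CG34355 (-2.11), P32 (-1.15), Nop17l (-1.04), Men (malic enzyme, -0.98), Mes2 (-0.97) and RluA-1 (-0.89), in the authors' deposited table. LE entries had a median log2 fold of -1.04 in fne and -1.10 in fne-rbp9 embryos, against -1.25 and -1.45 over all entries, in the authors' deposited tables. For LE entries against all entries of the authors' deposited tables, medians were -1.45 against -1.54 in elav-fne-rbp9, -1.51 against -1.73 in elav-fne, -1.36 against -1.47 in elav-rbp9 and -1.42 against -1.41 in elav embryos.

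Further low folds belonged to genes listed in 1 or 2 tables. RhoGAP18B had -3.20 in elav and -2.99 in elav-rbp9 embryos in the authors' deposited tables, and its 499-base segment lies 5507 bases beyond the segment before it (dm6, chrX:19136107-19136605, minus strand). CG15747 had -1.99 in elav and -1.92 in elav-rbp9 embryos, and caps (capricious, a leucine-rich repeat protein of axon targeting) had -1.58 in elav embryos, in the authors' deposited tables. Neither RhoGAP18B nor CG15747 had an LE entry in elav-fne or elav-fne-rbp9 embryos. CG15894 had -2.87 in elav-fne-rbp9 and -3.98 in elav-fne embryos in the authors' deposited tables. In elav-fne-rbp9 embryos alone, the authors' deposited table listed Syt7 (a synaptotagmin, -3.24) and CG31140 (-2.88). The LE segment of CG44422 was listed in elav-fne-rbp9 embryos within an entry of 4 segments, the others TE, with -3.35 in the authors' deposited table. A TE segment of CG44422 was also listed in elav-fne (-2.27), elav-rbp9 (-1.15) and elav (-1.41) embryos, in the authors' deposited tables.

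The ends inside the gene had mostly shallow folds, with a median of -1.19 in elav-fne-rbp9 embryos, against -1.68 for segments after a gap and -1.49 for segments that continue a 3′ UTR, in the authors' deposited table. They were named because the class is small. Besides CG31140, the authors' deposited table gave pan (the TCF factor of Wnt signalling) -1.60, for an entry that joined the LE segment with the CE segment after it, CG10077 -1.53, CG12163 -1.49, Pcf11 (a cleavage and termination factor) -1.36, RN-tre (a Rab GTPase-activating protein) -1.26 and app (approximated, a palmitoyltransferase) -1.13. It also gave cact (Cactus, the fly inhibitor of kappa B) -0.94, tutl (turtle, an immunoglobulin-superfamily protein) -0.86, Slik (a Ste20-family kinase) -0.85, Nhe3 (a sodium/proton exchanger) -0.82 and PNUTS -0.81, in the authors' deposited table.

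The functional gene lists are partial and leave out several listed genes named above, such as the factors zld and pan and the axon-targeting gene caps. Among their genes, cleavage and polyadenylation factors had LE segments in 13 of 15 annotated genes (86.7%), against 68.5% of all genes. Of these 13, 2 were listed, Pabp2 (the nuclear poly(A)-binding protein, -2.26 in elav-fne-rbp9 embryos) and Pcf11 (-1.36 in elav-fne-rbp9 and -0.78 in elav-fne embryos), in the authors' deposited tables. RNA-binding regulators had LE segments in 15 genes, of which 3 were listed: brat, bru3 and nonA (an RNA-binding protein of courtship song, -0.78 in fne embryos in the authors' deposited table). Synaptic vesicle and transmitter genes had 12, of which Syt1 and Syt7 were listed. Transcription factors and chromatin genes had 17, of which br was listed, and cytoskeleton and transport genes had 10, of which Act42A (a cytoplasmic actin, -0.92 in fne and -0.76 in fne-rbp9 embryos in the authors' deposited tables) was listed. None was listed among 13 ion channel and receptor genes, 13 axon guidance and adhesion genes and 11 signalling genes. Over all LE genes, 72 of 8643 (0.833%) were listed, and all 72 were among the 2209 LE genes with at least 2 3′ UTR segments. Such genes were 14 of the 15 RNA-binding, 13 of the 17 transcription and chromatin, and 9 of the 12 synaptic genes. They were 6 of the 13 cleavage factors and 6 of the 10 cytoskeleton genes. The share of 0.833% is therefore not a like background for the lists, and with such counts nothing particular to a list can be drawn.

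In late embryos, which have their own wild-type libraries and an annotation of their own, 26 LE segments were listed in elav-fne and 8 in elav embryos, and none in fne embryos. These are 0.246% of the late LE segments in elav-fne and 0.0756% in elav embryos, against backgrounds of 1.04% in elav-fne, 0.372% in elav and 0.0525% in fne embryos. Of the 24 LE genes in late elav-fne embryos, 14 (58.3%) were also LE genes in early elav-fne embryos, where they are 56.0% of 25. Of the 8 genes in late elav embryos, 6 were also listed early (75% of the late and 31.6% of the early genes). The same overlap over all listed genes was not computed, so these shares are no result about LE genes. In late elav-fne embryos the authors' deposited table gave Syt1 -4.56, Bsg -4.33, inaE -3.90, zld -3.20 and px -2.80. In late elav embryos it gave RhoGAP18B -3.45, Orcokinin (a neuropeptide precursor gene, with no LE entry in the early tables) -1.99, Syt1 -1.20, Bsg -1.18 and brat -1.17, in the authors' deposited table. Segments were matched by gene here, because only 38 of the 78 segments listed early have the same coordinates in the late annotation.

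The second experiment gave 1 weighted log2 fold per gene for genes taken from the early elav list, including the 19 with an LE entry, with segments that match in all 19. In elav-nFne embryos, 15 of 19 were lower at an adjusted p under 0.05 in the early stage, where the background is 82.1% of 173 genes, and 14 of 19 in the late stage, where it is 90.2%. In nFne embryos 1 of 19 was lower early (background 2.89%) and 1 late (background 14.5%), namely CG30411 both times, with -1.38 at the early and -1.51 at the late stage in the authors' deposited tables. HIP-R also passed in nFne embryos, with log2 folds of 0.03 in early and 0.02 in late embryos in the authors' deposited tables. The genes were chosen for a decrease in elav embryos, and these libraries are separate from those of the first experiment. The median log2 fold at the 19 genes was -1.91 in early and -0.95 in late elav-nFne embryos, against -1.84 and -1.43 over all genes in the authors' deposited tables. In nFne embryos it was -0.12 in early and -0.25 in late embryos, against -0.15 and -0.37 over all genes in the authors' deposited tables. Syt1 had -3.85 and inaE -3.19 in early elav-nFne embryos, against -0.28 for Syt1 in early nFne embryos, in the authors' deposited tables. RhoGAP18B, the lowest LE entry in early elav embryos, had -0.79 (adjusted p = 0.164) in early and -0.36 (adjusted p = 0.407) in late elav-nFne embryos in the authors' deposited tables, and so did not pass the threshold. CG15747 did not pass either, with -0.30 (adjusted p = 0.882) in early and -0.16 (adjusted p = 0.943) in late elav-nFne embryos, in the authors' deposited tables. Nor did HIP-R and CG42674 pass in early, or HIP-R, br and caps in late elav-nFne embryos.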

How the data were processed

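Members were the rows of the early annotation with type LE and the 3′ UTR mark. The members, gene lists and classes were chosen with earlier results of these data known. The authors deposited 2 segment annotations. The file headers name rtracklayer 1.40.5, and the submitters' processing notes give dm6 as the genome build. The 10 deposited tables of the first experiment give, per the file headers, a log2 fold of mutant over control, p-values and adjusted p-values, a fitted use score for each condition, and a mean normalised count, which is an average signal over libraries made by the authors. The control was taken as wild type of the same stage. The 4 deposited tables of the second experiment hold for each gene a weighted log2 fold with the lowest adjusted p-value among its segments. Head expression was deposited by the authors in TPM. The aligner and the authors' test are not named in any source used here, and read depth per embryo library is unknown. No values per library were used for embryos, so no test was fitted here, and no interval can be given for a fold.

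An entry was matched to a member when its gene and node agreed. Segments were ordered by node, and a gap was counted from the neighbour before. Widths and coordinates come from the annotation. Members were placed on the BDGP6.54 gene models of Ensembl 115, which use the same coordinates, and 10472 of 10543 matched a gene. Named were the 10 lowest folds per table, genes in at least 3 tables, 5 extremes of width, number and head TPM, and listed genes of the functional lists. The ends inside the gene and the low late folds were named after their values were seen. Overlap and interval code was tested on simulated data. Python 3.11.15, pandas 2.3.3, numpy 2.4.6, scipy 1.17.1 and matplotlib 3.10.9 were used. Values of 1 listed gene that the naming rule picks are not reported here, but it remains in the counts and medians. The iCLIP libraries were not analysed here. No genome sequence was used, so sequences at the segment ends were not read.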

Additional observations from a re-analysis of the deposited data

How the results depend on the processing

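No paired analysis was possible because no test was fitted and the deposited tables hold no values per library. Of 62 alternatives to 24 values, 41 stayed the same and 21 moved. Counts were the same within 1.5 times, shares and medians within a 95% interval, and head TPM values within the SD between the 2 libraries. The 95% intervals were taken over segments or entries, which are not replicates, so they do not measure a spread between libraries. A change of direction could be seen only for the difference in head TPM, which stayed negative in its alternatives. Counts, shares and listed folds could not change direction. Members with no annotated coding base, an alternative chosen after seeing the data, numbered 1987 with a median width of 216 bases, and 14 were listed in elav, 12 in elav-rbp9, 17 in elav-fne, 29 in elav-fne-rbp9 and 51 in any early table. The median width was 398 bases over all LE segments and 583 bases when summed per gene. The share that stood last was 77.0% in genes with at least 3 segments and 50.5% in genes with at least 2 3′ UTR segments. Among genes of at least 1 TPM, the median head level was 12.3 TPM and the log2 difference from other genes -0.43, against -1.06 over all genes and -1.18 with a pseudocount of 0.1. Without a head replicate, the median was 5.43 to 5.60 TPM and the difference -1.07 to -1.06. Entries of 1 segment left 14 in elav. A log2 fold of -1 or lower left 9 in fne and 7 in fne-rbp9, and an adjusted p under 1e-06 left 6 and 4. Among genes of at least 1 TPM, 0.715% of members were listed in elav-fne-rbp9. Without the fne-rbp9 table, 73 segments were listed. The causes of these shifts were not tested. Alternatives on the sequence at segment ends were not run. The lists hold decreases past a threshold only, so an unlisted segment is not shown to be unchanged, and the sources used here do not say which segments were testable.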
